A study of Mus musculus with 4 samples.

Results

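Malat1, Neat1, Miat, Rmst, Sox2ot, Pantr1 and Snhg11 are 7 mouse genes of long noncoding RNAs that act in, or are studied for roles in, the nucleus. They were taken by name from the single-cell table, and 6 of the 7 had a row among its 16600 genes. Sox2ot had no row and was not analysed here. Single-cell RNA-Seq came from CD24+ CD45- cells sorted from the cortex of E18.5 fetuses of strain C57BL/6J. The sort kept cells with CD24, found on neuronal cells, and left out those with CD45, found on blood cells. Of the 4 libraries, 2 were wild type (Setd5+/+, cell-name prefixes WT3 and WT6) and 2 were heterozygous for a Setd5 mutation (Setd5+/-, prefixes Het5 and Het9). The 10x Genomics chemistry used (3′, version 2) captures RNAs by their poly(A) stretches and counts each captured molecule 1 time, as a unique molecular identifier (UMI), by its sequence near that stretch. Setd5 encodes a SET domain protein of the histone methylation machinery, and each library came from 1 fetus. The mutant allele is not described in the labels, and a prefix names a genotype without saying which replicate it is, so libraries are called by prefix. All levels are counts per 10000 UMIs of a cell (CP10k), averaged over the cells of a library.

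Malat1 is an abundant, largely unspliced RNA that sits in nuclear speckles, the stores of splicing factors, and Neat1, its neighbor on the chromosome, is the scaffold of paraspeckles. Miat (also called Gomafu) lies in nuclear foci of neurons and their precursors and binds splicing factors such as Qk and Celf proteins. Rmst is known from midbrain and neural precursors, where it can work together with Sox2. Pantr1 is transcribed away from the POU factor gene Pou3f3, Sox2ot contains the Sox2 gene within its own span, and Snhg11 hosts small nucleolar RNAs.

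The kit primes on A stretches, so the annotated 3′ ends of the transcripts bear on what could be counted, and they are shown for that reason. The sequences are those of GENCODE M21 on GRCm38, read 5′ to 3′ on the strand of the transcript. Capitals mark the polyadenylation signal (AATAAA, or its variant ATTAAA, searched on the transcript strand in the last 50 bases). In the second Malat1 stretch they mark a run of A internal to the annotated transcript. All stretches shown are exonic. They are from the longest annotated transcript of each gene, with a shorter one added for Neat1, and other transcripts of the gene can end elsewhere.
Malat1-201 end, chr19:5795690-5795739, minus strand: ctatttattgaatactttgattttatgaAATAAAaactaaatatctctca
Malat1-201 internal run, chr19:5795964-5796023, minus strand: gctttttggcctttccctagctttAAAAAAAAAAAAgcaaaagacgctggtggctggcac
Neat1-201 end (long form), chr19:5824708-5824757, minus strand: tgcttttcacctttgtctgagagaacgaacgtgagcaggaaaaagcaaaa
Neat1-202 end (short form), chr19:5842307-5842356, minus strand: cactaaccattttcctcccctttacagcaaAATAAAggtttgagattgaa
Miat-205 end, chr5:112213228-112213277, minus strand: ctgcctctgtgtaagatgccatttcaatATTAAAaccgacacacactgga
Rmst-210 end, chr10:92081746-92081795, minus strand: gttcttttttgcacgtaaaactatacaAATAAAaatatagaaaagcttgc
Pantr1-208 end, chr1:42590782-42590831, minus strand: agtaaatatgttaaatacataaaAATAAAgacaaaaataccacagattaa
AATAAA stood in the last 50 bases of 26.6% of the 141672 annotated transcripts and of 30.6% of the 9100 lincRNA transcripts, and ATTAAA in 8.63% and 11.01% of them. The 2 Neat1 forms differed in this window. The short form of 3004 bases ended with AATAAA 20 bases from its end, and the long form of 20771 bases held neither motif. By gene, AATAAA stood there in 3 of 4 Malat1, 1 of 4 Neat1, 0 of 6 Miat, 4 of 14 Rmst, 9 of 12 Pantr1 and 2 of 5 Snhg11 transcripts. The longest Snhg11 transcript, not printed, held it 21 bases from its end. The A run of Malat1, present in 1 of its 4 transcripts, was 12 bases long, began at position 6674 of 6983 and lay 310 bases from the annotated end. Where the mature RNA ends was not examined. A run of at least 10 A was found anywhere in 7.18% of all transcripts. Such a match is a description of the letters and not evidence of priming there.

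The Malat1 gene spans chr19:5795690-5802672 and Neat1 chr19:5824708-5845478, 22036 bases apart and both on the minus strand. Miat spans chr5:112213228-112229395, Rmst chr10:92071037-92165170 and Pantr1 chr1:42590782-42694842, all on the minus strand, and Pantr1 starts 926 bases from the start of Pou3f3. Snhg11 spans chr2:158375638-158386145 on the plus strand and is typed as protein coding in this annotation. Malat1, Miat, Rmst and Pantr1 each have an annotated gene on the opposite strand within their span, and the sources used here do not say whether the counting used strand.

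The libraries held 1445 to 1954 cells and 8205330 to 11742956 UMIs, with medians of 5398 to 5997 UMIs per cell. Cd24a was found in 90.2% of the 6562 cells. Ptprc, which encodes CD45, was found in 82 cells, 74 of them in the immune-like cluster 12. Setd5 was lower in both Setd5+/- libraries (0.540 and 0.586 against 1.18 and 1.07 CP10k). Xist was at 20.6 and 21.5 CP10k in WT3 and WT6 and at 0.152 and 0.310 in Het5 and Het9, so sex and genotype cannot be told apart between these libraries. In all 224 cells, 140 of the 147 in cluster 10 and 84 of the 105 in cluster 12, carried a barcode present in all 4 libraries. No other cluster held such a cell, and the levels of Neat1 are given with and without clusters 10 and 12. Most of the cells behind every other value of these 2 clusters carry shared barcodes too.

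Clusters were built without the members, and 14 were found. Named from markers, cluster 3 was radial glia-like (neural stem cells), 2 cycling, 4 intermediate progenitor-like (neuron-producing daughters of radial glia), 7 subpallial progenitor-like, 0 excitatory neuron-like, 5 interneuron-like, 8 striatal neuron-like, 10 melanocyte-like, 12 immune-like and 13 erythroid-like. Clusters 1 (led by Cxcl12 and Cdh8), 6 (Tac2 and Tfap2d), 9 (Hells and Neurog2) and 11 (Ttr, Rspo3 and Reln) stayed unnamed.

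Malat1 gave more UMIs than any other gene, 948610 of all UMIs or 2.45%, against 0.905% for the next, Tmsb4x. It was found in 6545 of 6562 cells (99.7%). Of the 17 cells without it, 15 belonged to melanocyte-like cluster 10. Its median share of a cell's UMIs was 2.38% in WT3, 2.39% in WT6, 2.28% in Het5 and 2.45% in Het9. The highest single cells reached 17.6%, 22.1%, 17.1% and 12.5% in the same order.

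Pantr1 gave 33350 UMIs in 86.8% of cells, Miat 3440 in 35.4%, Rmst 1447 in 11.2%, Neat1 402 in 2.99% and Snhg11 229 in 2.38%. Intervals and limits on such counts cover counting error only. Thinning every cell to 1000 UMIs lowers each of these shares, so they are read beside the CP10k level below.

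Malat1 fell into 3 ranges over the clusters. The highest range held clusters 11 (442 CP10k ± 26.8), 5 (389 ± 40.4), 6 (388 ± 18.0), 8 (368 ± 57.9), 0 (322 ± 22.0) and 1 (303 ± 5.68; SD, n = 4 libraries here and below). Clusters 4 (213 ± 11.3) and 12 (200 ± 10.7) formed the middle range. The lowest held clusters 2 (174 ± 7.40), 3 (155 ± 16.7), 7 (145 ± 25.7), 13 (132 ± 46.7), 9 (108 ± 6.07) and 10 (105 ± 3.37). In the cells of clusters 10 and 12 whose barcode was not in all 4 libraries, Malat1 was at 183 CP10k in 7 cells and at 231 in 21. The libraries of different ranges did not overlap, except for erythroid-like cluster 13 with 27 cells, where they ran from 76.8 to 191. Neighbors within a range overlapped. All 3 named neuron clusters were in the high range, and none of the 4 named progenitor clusters was.

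**Figure D1:**
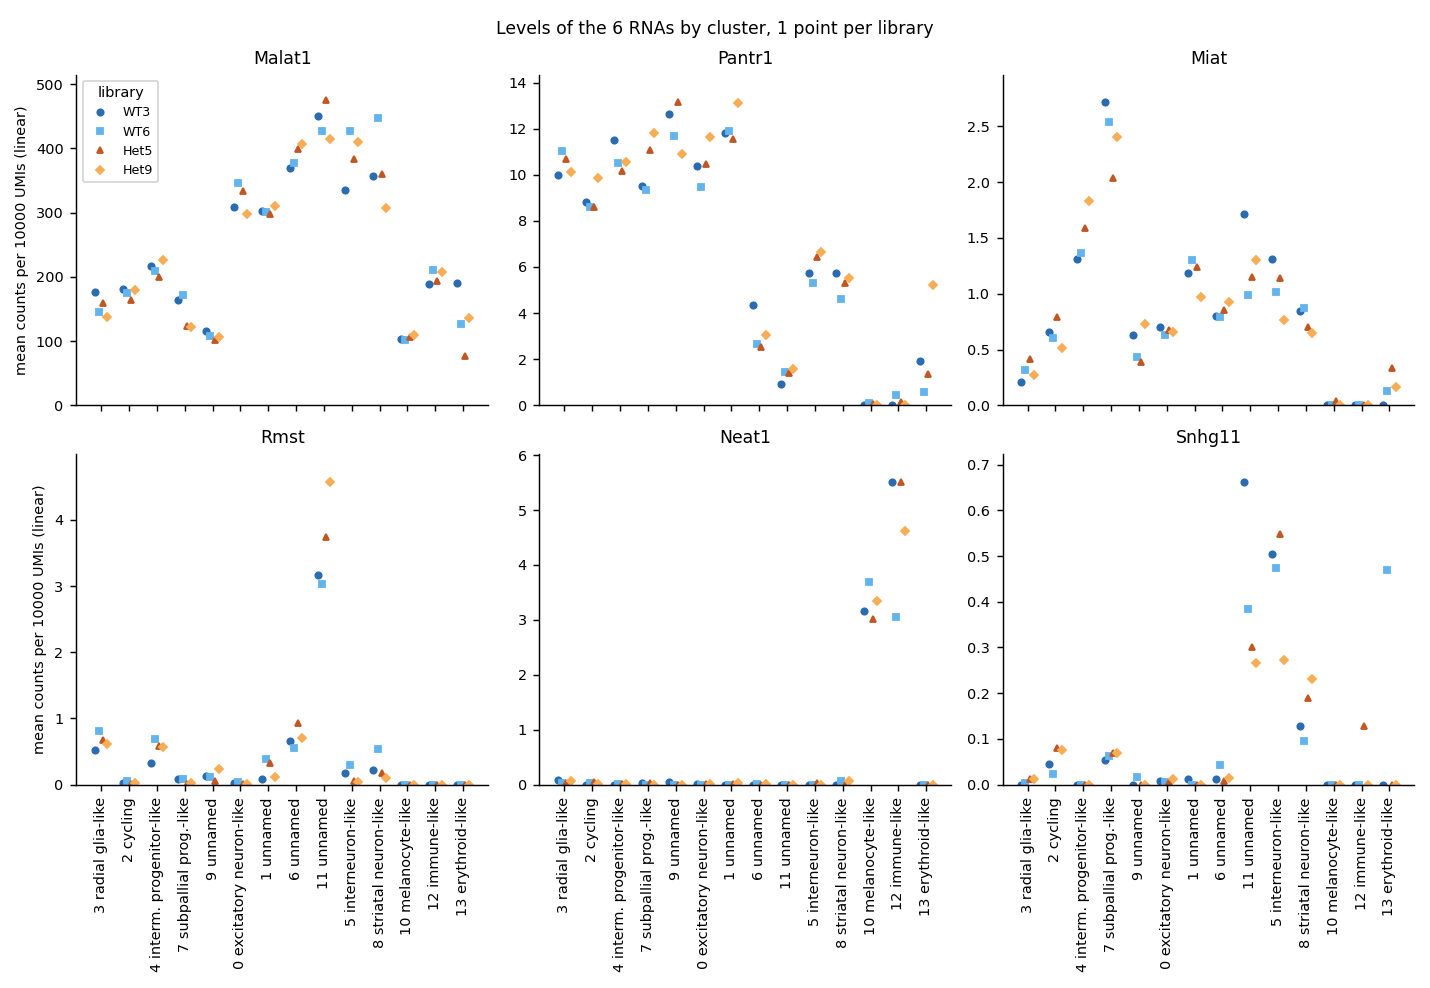
Level of each of the 6 RNAs (CP10k, linear axes from 0) in each cluster, with 1 point per library, told apart by color and symbol. Malat1 and Pantr1 were found across the neural clusters, while Neat1 was concentrated in clusters 10 and 12 and the level of Rmst was highest in cluster 11.

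Neat1 lay mostly in the melanocyte-like and immune-like clusters. Cluster 12 had 4.67 ± 1.16 CP10k and cluster 10 had 3.30 ± 0.288, and the next, radial glia-like cluster 3, had 0.0476. Clusters 10 and 12 together held 345 of the 402 UMIs (85.8%) in 252 cells. By library this was 88, 79, 87 and 91 UMIs in WT3, WT6, Het5 and Het9. The 6310 cells of all other clusters held 57 UMIs, or 9, 17, 17 and 14 by library, at 0.0115, 0.0158, 0.0190 and 0.0191 CP10k. In these cells Neat1 was near the limit of detection in every library, while Malat1 from the neighboring locus was found in all but 2 of them.

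The Neat1 signal came mostly from cells with shared barcodes. The 252 cells of clusters 10 and 12 carried 75 distinct barcodes, and 56 of these occurred in all 4 libraries, each in the same cluster every time. Those 56 barcodes, 224 cells, held 326 Neat1 UMIs. Neat1 was seen under the same barcode in all 4 libraries for 15 barcodes, in 3 for 16, in 2 for 7, in 1 for 5 and in none for 13. The 4 libraries are therefore not separate samples for the level of Neat1 in these clusters, and the library spread there is not a spread between fetuses.

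Miat was highest in the subpallial progenitor-like cluster 7, at 2.71, 2.54, 2.03 and 2.41 CP10k in WT3, WT6, Het5 and Het9. No library of the next cluster, intermediate progenitor-like cluster 4 (1.52 ± 0.237), reached that range. In cluster 7 it was found in 67.6% of cells. Clusters 11 (1.29), 1 (1.17) and 5 (1.057) followed, and radial glia-like cluster 3 was lowest among the neural clusters at 0.302 ± 0.0856. Cluster 10 held 1 Miat UMI, and none was found in the 105 cells of cluster 12, which carry 36 distinct barcodes and so allow a share of up to 8.33% of them to have a UMI.

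Rmst stood apart in cluster 11, whose leading genes include Reln and Rspo3, from the marker list used for Cajal-Retzius cells, and the choroid plexus gene Ttr. Its level there was 3.17, 3.03, 3.75 and 4.58 CP10k in WT3, WT6, Het5 and Het9, from 48, 97, 68 and 78 UMIs. It was found in 81.5% of the 108 cells, and in 30.6% of them after thinning. The cluster held 291 of 1447 Rmst UMIs (20.1%) in 1.65% of the cells. Cluster 6 (0.712 ± 0.156), radial glia-like cluster 3 (0.655 ± 0.123) and intermediate progenitor-like cluster 4 (0.544 ± 0.151) came next and overlapped. The cycling cluster 2 (0.0308) and the excitatory neuron-like cluster 0 (0.0173) were far lower, and clusters 10, 12 and 13 held no Rmst UMI, which allows up to 7.69% and 8.33% of the distinct barcodes of clusters 10 and 12 and 11.1% of the cells of cluster 13 to have one.

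Pantr1 was highest in clusters 1 (12.1 ± 0.687) and 9 (12.1 ± 1.001), and lay between 8.97 and 10.7 CP10k on average in clusters 4, 3, 0, 7 and 2. Interneuron-like cluster 5 (6.03 ± 0.615) and striatal neuron-like cluster 8 (5.30 ± 0.487) were lower, followed by clusters 6 (3.13 ± 0.838), 13 (2.27, from 0.587 to 5.21) and 11 (1.34 ± 0.278). Melanocyte-like cluster 10 held 2 Pantr1 UMIs in 147 cells. In cluster 11 Malat1 was at its highest, and Pantr1 had a lower mean than in any other cluster except 10 and 12.

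Snhg11 was sparse, and its highest mean level was in interneuron-like cells. Cluster 5 had 0.450 ± 0.123 CP10k and held 111 of the 229 UMIs (48.5%) in 8.52% of the cells. Cluster 11 had 0.404 ± 0.180, which overlapped cluster 5, and striatal neuron-like cluster 8 had 0.161 ± 0.0606. The excitatory neuron-like cluster 0 had 0.00765, and cluster 4 held no Snhg11 UMI in 616 cells, which allows a share of up to 0.487%.

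The question of how the RNAs differ between progenitors and neurons was put to the 2457 cells of clusters 2, 3, 4 and 7 and the 2154 cells of clusters 0, 5 and 8, with 1 value per class and library. Differences are given as log2 of the ratio after adding 0.1 CP10k, with the standard error (SE) and the Benjamini-Hochberg adjusted P of limma over all genes tested, and a gene was called under 0.05. Of 8054 genes tested 67.3% were called, 36.3% higher in neurons and 31.0% lower. The classes were built from other genes of the same cells. All 4 members tested were called, which is to be read against that share. The remaining 2, Neat1 and Snhg11, were below the filter of 0.1 CP10k.

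Malat1 was at 323, 399, 349 and 319 CP10k in the neurons of WT3, WT6, Het5 and Het9 and at 186, 172, 166 and 175 in their progenitors. The lowest neuron value lay above the highest progenitor value. The difference was 0.99 (SE 0.048, 95% confidence interval 0.887 to 1.09, limma adjusted P = 3.47e-14), or 1.98-fold, and its size ranked 1022 among the 8054 genes. Median UMIs per cell were 4583.5 to 5042 in the neuron class and 6140.5 to 6861.5 in the progenitor class. Within cells of 4000 to 8000 UMIs the difference was 0.77 and was still called.

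Miat was lower in neurons, at 0.882, 0.822, 0.791 and 0.675 against 1.07, 1.03, 1.02 and 1.14 CP10k. The classes did not overlap, and the difference was -0.39 (SE 0.072, limma adjusted P = 6.16e-05). It depended on which clusters stood for each class, since excitatory neuron-like cells alone were above radial glia-like cells by 0.95. Pantr1 was lower in neurons by a small amount, at 8.50, 6.83, 8.93 and 9.73 against 9.82, 9.94, 10.0 and 10.4. That difference was -0.25 (SE 0.053, limma adjusted P = 0.000246), and it was 0.00 between excitatory neuron-like and radial glia-like cells.

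Rmst was at 0.0861, 0.251, 0.0336 and 0.0327 CP10k in neurons and at 0.210, 0.449, 0.375 and 0.348 in progenitors. Neurons were lower in each of the 4 libraries, although the neuron value of WT6 exceeded the progenitor value of WT3. The difference was -1.24 (SE 0.152, limma adjusted P = 2.21e-07). It turned to 0.62 at the higher clustering resolution, where several clusters changed class, among them a Cajal-Retzius-like cluster led by Reln that joined the neurons. Rmst was found in 13.1% of progenitor cells and 3.34% of neuron cells, and in 2.89% and 0.9749% of them after thinning. Cells with it held 1.94 and 1.42 Rmst UMIs each on average, at the different depths of the classes.

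Below the filter, Neat1 was at 0.00494 to 0.0182 CP10k in neurons and 0.0219 to 0.0298 in progenitors, from 10 and 39 UMIs. Snhg11 was at 0.0950 to 0.188 in neurons and 0.0192 to 0.0360 in progenitors, from 137 and 48 UMIs. Neither pair of classes overlapped, and neither gene was tested.

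Along the pallial order, from radial glia-like cluster 3 through intermediate progenitor-like cluster 4 to excitatory neuron-like cluster 0, the RNAs followed different courses. Malat1 rose at both steps. Miat rose and then fell, Rmst fell at the second step, and Pantr1 passed the test at neither. At the first step 50.7% of 8031 genes were called, 20.2% higher and 30.4% lower, and 2 of the 4 members tested were called. At the second step 54.7% of 7777 genes were called, 31.6% higher and 23.2% lower, and 3 of the 4 members were called.

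Malat1 was at 176, 146, 160 and 138 CP10k in radial glia-like cells of WT3, WT6, Het5 and Het9. It was at 216, 209, 200 and 226 in intermediate progenitor-like cells and at 309, 346, 334 and 298 in excitatory neuron-like cells. The 3 sets of values did not overlap. The first step was 0.46 (SE 0.033, limma adjusted P = 9.35e-14) and the second 0.59 (SE 0.029, limma adjusted P = 2.62e-20). The step sizes held within 4000 to 8000 UMIs per cell, at 0.47 and 0.50.

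Miat had the largest rise of any member at either step. It went from 0.206, 0.317, 0.411 and 0.276 CP10k to 1.31, 1.36, 1.59 and 1.83, and then to 0.698, 0.633, 0.675 and 0.660. Intermediate progenitor-like cells were above both other clusters in every library. The rise was 2.03 (SE 0.119, limma adjusted P = 5.32e-16), or 4.08-fold with 0.1 CP10k added to each level. The fall was -1.07 (SE 0.092, limma adjusted P = 7.03e-13).

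Rmst was at 0.525, 0.817, 0.668 and 0.610 CP10k in radial glia-like cells and at 0.334, 0.692, 0.587 and 0.563 in intermediate progenitor-like cells, and these ranges overlapped. The first difference was -0.25 (95% confidence interval -0.494 to -0.006, limma adjusted P = 0.0823) and was not called. Excitatory neuron-like cells were at 0.0169, 0.0355, 0.00322 and 0.0134, below every value of both earlier clusters, from 14 UMIs in 1221 cells. The second difference was -2.43 (SE 0.151, limma adjusted P = 7.07e-17). The added 0.1 CP10k exceeded every excitatory neuron-like value, so the size of this difference depends on it.

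Pantr1 was between 9.47 and 11.6 CP10k in all 12 of these values. Its steps were 0.03 (95% confidence interval -0.061 to 0.123) and -0.03 (-0.119 to 0.061). Its neighbor Pou3f3, a transcription factor of upper-layer neurons, differed by 0.76 at the second step. In the comparison of neuron and progenitor classes Pou3f3 was higher in neurons by 0.54, against the lower Pantr1.

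**Figure D2:**
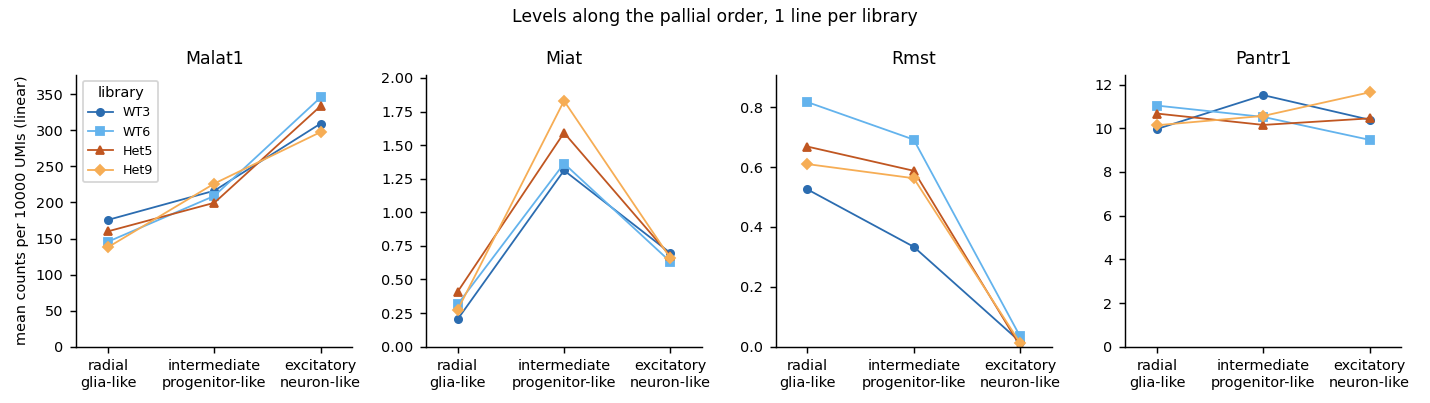
Level (CP10k, linear axes from 0) of Malat1, Miat, Rmst and Pantr1 in radial glia-like, intermediate progenitor-like and excitatory neuron-like cells, with 1 line per library. Malat1 increased at each step in all 4 libraries, Miat peaked in intermediate progenitor-like cells at 1.31 to 1.83, and Rmst fell to 0.0355 or less in neurons.

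The relation of each RNA to the number of UMIs per cell was examined within each library and cluster. The cells of each were ordered by UMIs and divided into 4 bins of 25% each, so that cluster and library were held. A cluster can hold cell types of different depth, and the part of this in the differences was not tested. The deepest bin was compared with an equal number of the shallowest cells, 358, 483, 422 and 355 of each in WT3, WT6, Het5 and Het9. Where a group of cells did not divide evenly the extra cells fell in the lower bins, so that the lowest bin held 368, 495, 432 and 367 cells and its mean differs slightly from that of the shallow cells compared. Of 8184 genes 29.5% were called, 11.2% higher in deep cells and 18.3% lower, and 3 of the 5 members tested were called. CP10k has the UMIs of the cell as its denominator, so a negative relation means a smaller share and not fewer molecules.

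Malat1 was at 238, 239, 223 and 231 CP10k in the deepest bin of WT3, WT6, Het5 and Het9 and at 319, 389, 341 and 335 in the equal number of shallow cells. The ranges were far apart, and the difference was -0.57 (SE 0.022, limma adjusted P = 1.59e-20), ranked 235 by size among 8184 genes. Over the 4 full bins the mean level of the libraries went from 343 through 257 and 232 to 233 CP10k. The number of Malat1 UMIs per cell went the other way, from 116 through 131 and 144 to 186. Deep cells thus held more Malat1 UMIs, but as a smaller share of all UMIs, and most of the difference lay between the lowest bin and the next. The difference was -0.63 within excitatory neuron-like cells and -0.23 within the progenitor clusters.

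Pantr1 was lower in deep cells too, at 7.31, 6.87, 7.68 and 7.56 against 10.0, 8.54, 9.30 and 10.1 CP10k. The ranges did not overlap, and the difference was -0.36 (SE 0.037, limma adjusted P = 1.47e-09). Its UMIs per cell went from 3.85 in the lowest bin to 5.91 in the highest. Rmst was the only member called higher in deep cells. It was at 0.293, 0.480, 0.462 and 0.350 in the deepest and at 0.160, 0.305, 0.246 and 0.212 CP10k in the shallow cells, higher in each library although the ranges overlapped. The difference was 0.59 (SE 0.103, limma adjusted P = 3.3e-05), and Rmst UMIs per cell rose from 0.104 to 0.343 over the bins.

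Miat differed by -0.19 (limma adjusted P = 0.0531) and was not called. Neat1, also tested and not called, rests on clusters 10 and 12, and no difference is given for it. Miat UMIs per cell were 0.386 in the lowest and 0.692 in the highest bin, and Neat1 UMIs per cell 0.0491 and 0.0763. Snhg11 was below the filter. As a description over cells within a library and cluster, Spearman's rho between the level and the UMIs of a cell had a median of -0.15 for Malat1 over 51 library and cluster pairs, 42 of them negative. It was -0.10 for Pantr1 over 43 pairs and 0.21 for Rmst over 20, of which 3 were negative. The median rho of Malat1 with the mitochondrial share of a cell was 0.22. All these measures share the cell's UMIs as denominator.

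**Figure D3:**
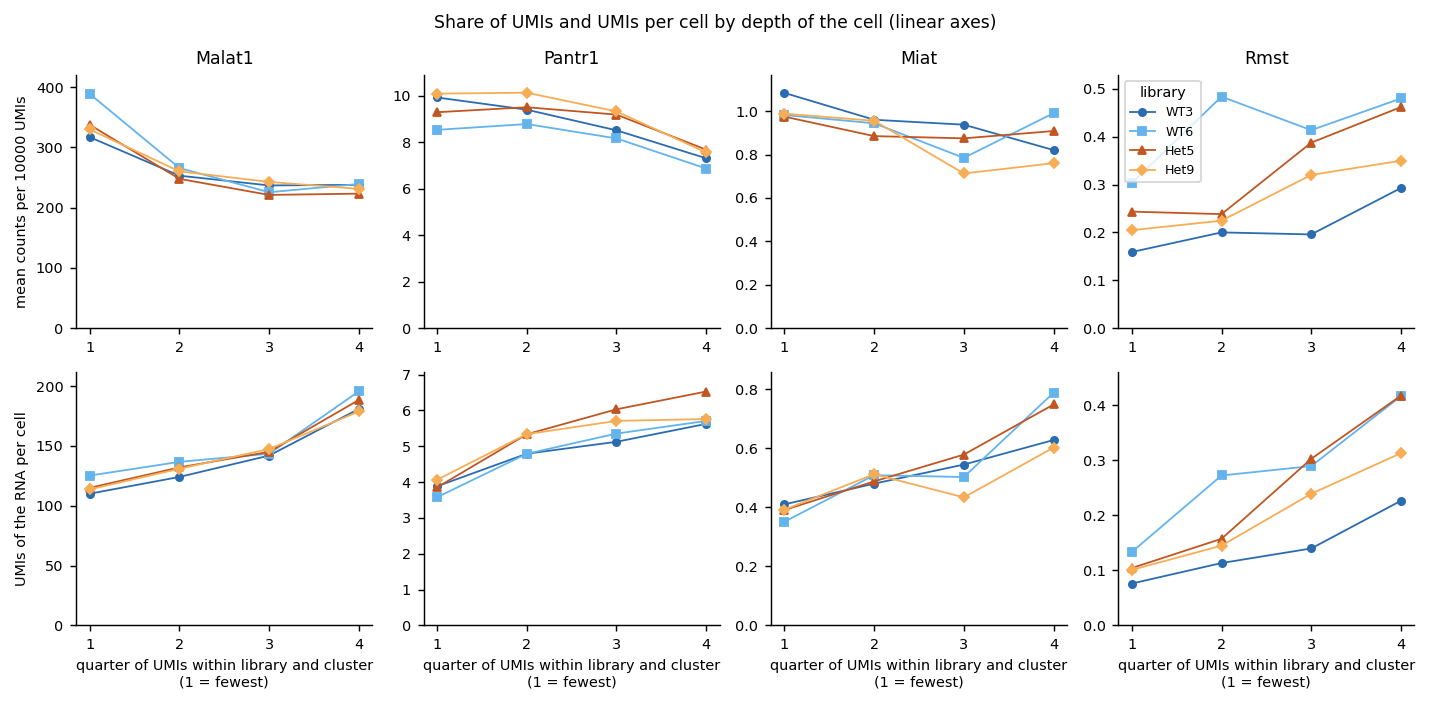
Level (CP10k) and UMIs per cell of Malat1, Pantr1, Miat and Rmst (linear axes) over the 4 bins of UMIs within library and cluster, with 1 line per library. The Malat1 level fell from 343 to 233 CP10k on average while its UMIs per cell rose from 116 to 186.

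Other long noncoding RNAs and the proteins that share nuclear bodies with these RNAs moved in both directions. Of 66 other named long noncoding RNAs 31 had a row and 18 were tested between neurons and progenitors, where 6 were higher in neurons and 7 lower, with a median of -0.10 against 0.04 over all genes, of which 36.3% were higher and 31.0% lower. The lists leave out the members. Meg3, an imprinted RNA, was higher by 1.58, at 9.28, 15.03, 6.63 and 7.54 CP10k in neurons against 4.07, 4.12, 2.18 and 2.15. Mir124a-1hg, the host of a neuronal microRNA, was higher by 0.65 and C130071C03Rik by 0.54. Snhg18 differed by -2.36, the imprinted H19 by -1.98 and Snhg9 by -0.66 on the log2 scale. Among 20 nuclear body proteins 5 were higher and 11 lower, beside the same 36.3% and 31.0%, with a median of -0.17. Qk, a splicing factor that binds Miat, fell by 1.58, and the splicing factors Srsf2 and Srsf1 fell by 0.60 and 0.54. Celf1 was higher by 0.28 and Son, a core protein of nuclear speckles, by 0.18. Of the 6 chromosomal neighbors tested 2 were higher, Pou3f3 by 0.54 and Ralgapb by 0.47, and 3 lower, Nedd1 by -1.14, Sox2 by -0.94 and Frmd8 by -0.67, beside the same shares of all genes.

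In deep against shallow cells, 7 of these 18 long noncoding RNAs were lower and 1 higher, with a median of -0.22. Over all genes 18.3% were lower and 11.2% higher, with a median of -0.05. Among 52 genes typed as lincRNA that were tested, the members left out, 21 were lower and 3 higher, with a median of -0.26. They can include some of the 18, so these counts are not independent. The lower share in deep cells was thus not shown to be particular to Malat1 and Pantr1.

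The genotype comparison over all cells of a library asked whether the members differed between Setd5+/+ and Setd5+/- fetuses. Only 2 libraries stood for each genotype, and 0.086% of 8137 genes were called, or 7 genes. None of the 5 members tested was called by limma, while 353 of the 8137 genes had an unadjusted P under 0.05 and none of the members did. Malat1 was at 261, 280, 258 and 266 CP10k in WT3, WT6, Het5 and Het9, with overlapping genotypes. The difference, Setd5+/- relative to Setd5+/+, was -0.05 (95% confidence interval -0.171 to 0.077, limma adjusted P = 0.994).

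Miat was at 0.952, 0.926, 0.911 and 0.855 CP10k and Pantr1 at 8.80, 8.09, 8.92 and 9.29. In neither did the genotypes overlap, but the differences of -0.08 and 0.11 had 95% confidence intervals that included 0, -0.232 to 0.072 and -0.028 to 0.245. Neat1 was at 0.173, 0.119, 0.166 and 0.216 and passed the filter through clusters 10 and 12, whose libraries are not separate samples, so no genotype difference is given for it. Outside these clusters it was below the filter. Snhg11, below the filter, was at 0.0724, 0.0823, 0.0679 and 0.0512.

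Rmst differed between the wild-type libraries. It was at 0.211 in WT3 and 0.420 in WT6, and at 0.332 in Het5 and 0.274 in Het9. Both mutant libraries thus lay between the wild-type ones, and the genotype difference was 0.00 (95% confidence interval -0.501 to 0.502). Radial glia-like cluster 3 held 101 of 1453, 254 of 1954, 236 of 1710 and 122 of 1445 cells in WT3, WT6, Het5 and Het9. Cluster 11 held 1.31%, 2.15%, 1.35% and 1.66% of them. The part of this makeup in the Rmst levels was not tested. For Rmst the highest library was 1.67 times the lowest after adding 0.1, against a median of 1.12 over all genes, which put it at percentile 99.1. The ratio was 1.09 for Malat1, 1.10 for Miat and 1.15 for Pantr1. No ratio is given for Neat1, most of whose UMIs came from clusters 10 and 12.

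Within clusters the genotypes were compared in the 12 clusters in which each library had 20 cells or more. Over these, 97 of 90601 tests of a gene in a cluster were called (0.107%), and 1 of 44 tests of a member. An unadjusted P under 0.05 was reached by 8 of the 44, against 5.20% of all 90601 tests. The 7 of these that were not called were Malat1 in clusters 6, 8 and 10, Miat in cluster 4 (0.33, limma adjusted P = 0.817), Rmst in clusters 5 and 8 and Pantr1 in cluster 7. Clusters 10 and 12, whose libraries are not separate samples, are 2 of the 12. Without them there were 97 calls in 76510 tests and 39 tests of a member, 7 of them with an unadjusted P under 0.05. The call was Malat1 in subpallial progenitor-like cluster 7, where 0.254% of 7477 genes were called. The study names Malat1 for a cluster of these same samples under its own numbering. No match between that cluster and those built here was made, and no call on Malat1 between genotypes is independent of that choice.

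In cluster 7 Malat1 was at 164 and 171 CP10k in WT3 and WT6 and at 124 and 122 in Het5 and Het9, from 86, 142, 89 and 66 cells. Both mutant libraries lay below both wild-type libraries. The difference was -0.44 (SE 0.057, 95% confidence interval -0.561 to -0.324, limma adjusted P = 0.00019), or 1.36-fold lower. Its size ranked 1064 among the 7477 genes tested. The call held in all 14 alternatives run for it, between -0.58 and -0.41, with each library left out, with cells thinned to 1000 UMIs and within 4000 to 8000 UMIs per cell. With a library left out 1 library stood for its genotype and was assumed to vary like those of the other.

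Other measures of cluster 7 also differed between the genotypes. Median UMIs per cell were 5170.5, 5665.5, 6080 and 5733.5, higher in both mutant libraries. The summed level of 10 radial glia markers was 10.9, 12.4, 17.2 and 14.7 CP10k and that of 11 cycling markers 8.89, 8.90, 11.3 and 10.98, without overlap. The 11 interneuron markers summed to 8.18, 8.48, 8.63 and 10.2 and the 9 striatal neuron markers to 9.48, 9.63, 7.87 and 8.46, again without overlap. The 8 subpallial progenitor markers summed to 24.02, 23.6, 21.7 and 23.8 and the 7 intermediate progenitor markers to 13.2, 13.6, 10.9 and 15.2, with overlap. Of the markers in these 6 lists, 2 of the 9 striatal and 2 of the 7 intermediate progenitor ones were at 0, and none of the others. The 4 oligodendrocyte progenitor markers summed to 0.382, 0.592, 1.601 and 0.728 and the 7 Cajal-Retzius markers, 2 of them at 0, to 0.226, 0.202, 0.00923 and 0.124, also without overlap. The part of these measures in the result was not tested. Miat in cluster 7 differed by -0.24 (limma adjusted P = 0.801) and Pantr1, at 9.53, 9.32, 11.1 and 11.8 CP10k, by 0.28 (limma adjusted P = 0.551), without a call.

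Malat1 was not called in any of the other 11 clusters. In radial glia-like cluster 3 it was at 176, 146, 160 and 138 CP10k, with overlap, a difference of -0.11 (SE 0.065, limma adjusted P = 0.939). The difference was 0.00 in cluster 4 and -0.05 in cluster 2. In cluster 6 all mutant values, 398 and 407, lay above the wild-type values of 369 and 377, a difference of 0.11 (SE 0.026, limma adjusted P = 0.235) that was not called. In striatal neuron-like cluster 8, at 356, 447, 360 and 308, it was -0.26 (limma adjusted P = 0.926). Whether cluster 7 differed in this from the other clusters was not tested.

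**Figure D4:**
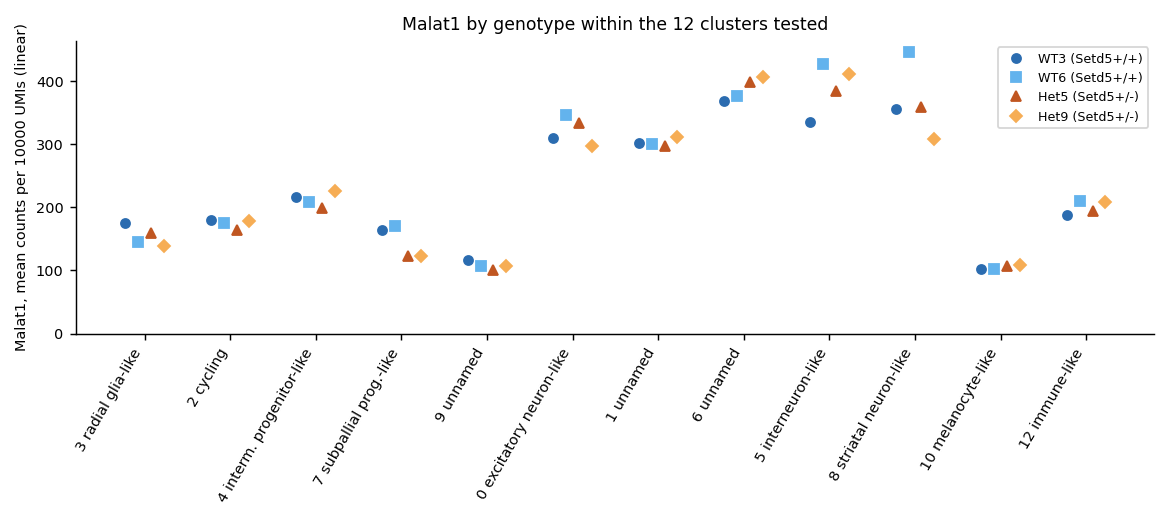
Malat1 level (CP10k, linear axis from 0) in each of the 12 clusters tested, with 1 point per library, told apart by color and symbol. In cluster 7 both Setd5+/- libraries, at 124 and 122, were below both Setd5+/+ libraries, at 164 and 171.

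The test of whether the difference between neurons and progenitors itself depended on genotype called 0.0497% of 8054 genes, or 4, and 1 of the 4 members, Rmst. An unadjusted P under 0.05 was reached by 387 genes. Rmst in neurons against progenitors was -0.74 in WT3, -0.65 in WT6, -1.83 in Het5 and -1.76 in Het9. Both mutant values were below both wild-type values, and the difference of the differences was -1.10 (SE 0.188, 95% confidence interval -1.496 to -0.705, limma adjusted P = 0.0311). It rested on 21, 64, 9 and 8 Rmst UMIs in the neurons of WT3, WT6, Het5 and Het9.

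The call was lost in 8 of 15 alternatives, among them leaving out WT3 (-1.15, limma adjusted P = 0.127) or WT6 (-1.05, limma adjusted P = 0.189) and a pseudocount of 1 (-0.21, limma adjusted P = 0.449). The makeup of the neuron class moved with the libraries, since interneuron-like and striatal neuron-like cells, which held more Rmst than excitatory neuron-like ones, were together 40.7% of it in WT3, 59.4% in WT6, 34.9% in Het5 and 34.4% in Het9. The part of this in the result was not tested. Within interneuron-like cluster 5 Rmst was at 0.169, 0.298, 0.0510 and 0.0385 CP10k (-1.18, limma adjusted P = 0.635). Within striatal neuron-like cluster 8 it was at 0.220, 0.531, 0.182 and 0.101 (-0.92, limma adjusted P = 0.932), and neither was called although the genotypes did not overlap. Malat1 (-0.04), Miat (-0.22) and Pantr1 (0.24, limma adjusted P = 0.959) were not called in this test.

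**Figure D5:**
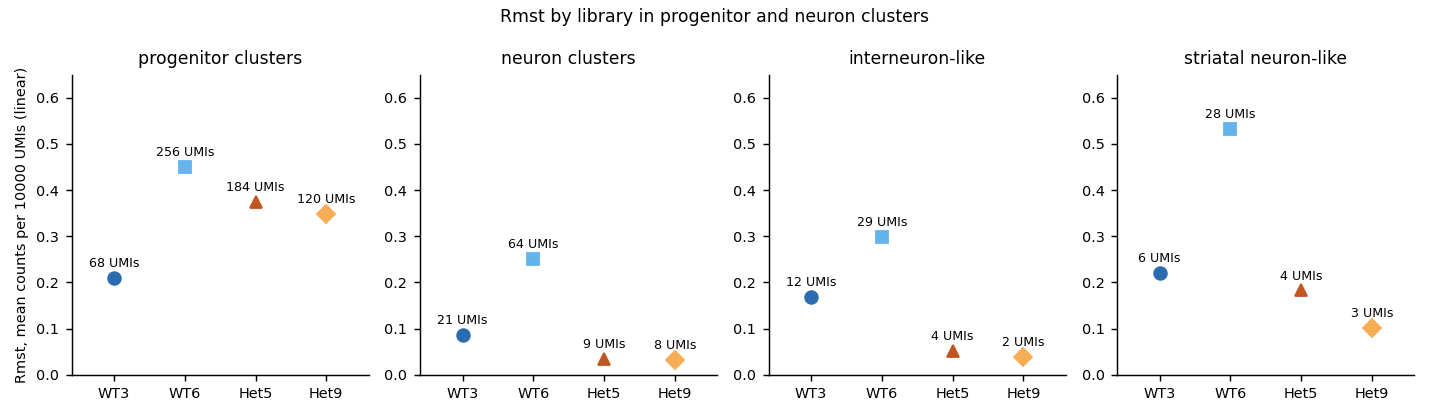
Rmst level (CP10k, linear axes from 0) by library in the progenitor class, the neuron class, interneuron-like cluster 5 and striatal neuron-like cluster 8, with 1 point per library and its Rmst UMIs beside it. In the neuron class Het5 and Het9 were at 0.0336 and 0.0327, below WT3 at 0.0861 and WT6 at 0.251.

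The genes most like each member over clusters and libraries were found by Pearson's r of log2 levels over 48 points, from 12 clusters in 4 libraries, among 8358 genes, as a description. For Malat1 they were Cd200 (0.887), Scaper (0.885) and Rusc1 (0.884). For Pantr1 they were Efnb1 (0.967), Rcn2 (0.961) and its neighbor Pou3f3 (0.950). For Miat they were Elavl4 (0.924), Mthfd2l (0.915) and Katnal1 (0.909), and for Rmst Thbs3 (0.787), Cachd1 (0.785) and Fut9 (0.778). For Snhg11 they were Gad1 (0.881), Erbb4 (0.869) and Neb (0.860). The 12 clusters leave out cluster 11, where Rmst was highest, since it held 19 cells in WT3. Snhg11 was below the filter, with 229 UMIs, and had no UMI in some of the 48 points. Neat1 reached 0.991 with each of Atf3, Emp3 and Klf2, a pattern set by clusters 10 and 12. Rmst was at 0.215 with Sox2, and Malat1 at -0.380 with Neat1.

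Without clusters 10 and 12, over 40 points and 8005 genes, the leading gene became Ankrd12 for Malat1 (0.949), Ppp1r14b for Miat (0.820), Tgfb2 for Rmst (0.802), Pou3f2 for Pantr1 (0.790) and Fam65b for Snhg11 (0.918). Neat1 was then below the filter, and its highest r was 0.554, with Arl1. Pou3f3 was then at 0.711 with Pantr1, and Gad1, the enzyme that makes GABA, at 0.913 with Snhg11. Rmst was at -0.151 with Sox2, and Malat1 at -0.185 with Neat1.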

How the data were processed

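Single-cell RNA-Seq was run on CD24+ CD45- cortical cells, from 2 fetuses of each genotype, at E18.5. The values deposited by the authors are the natural log of 1 plus CP10k, scaled by each cell's own UMIs, for 16600 genes and 6562 cells of 1258 to 14996 UMIs, made with Cell Ranger 2.1, Seurat 2.3.0 and mm10 per the submitters' processing notes. For annotation, strand setting and cell filters nothing is given in the sources used here. All 14848520 values gave whole UMIs (tolerance 0.001), and no further cells were removed. The bulk RNA-Seq of the same study was not used here.

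Cells were clustered with scanpy 1.11.5 and leidenalg 0.10.2 (2000 variable genes, 20 principal components, 20 neighbors, resolution 0.4), leaving out 52 genes in the table (members, other long noncoding RNAs and genes the study names for 1 cluster). The rule for naming clusters from markers was settled after their leading genes had been seen and before the members' values by cluster were. Mean CP10k per library and group was tested with limma 3.58.1 (trend) in R 4.3.3 on log2(mean + 0.1), for genes with a mean of at least 0.1, with Benjamini-Hochberg adjustment at 0.05. Comparisons of groups of cells had the library as a block. Libraries are the replicates, 2 per genotype, and the tests were run on simulated data with changes of 0.5 and 1 on the log2 scale. The genotype test over all cells recovered 75.5% and 100% of them, and that in cluster 7 10.2% and 41.5%. Neurons against progenitors recovered 72.9% and 100%, and the difference by genotype 18.2% and 73.7%. A member not called within a cluster can thus still differ. A doublet caller marked 64 cells (0.975%), which were kept except in 1 alternative.

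The genes named are the members, Setd5, Xist, Sox2, Pou3f3, the 3 genes most like each member, the 3 of largest change in each direction of each list, and the markers. A gene that the rule also names is not reported here. Tmsb4x, Cd24a, Ptprc and the values of Meg3 by library were added after seeing the data. Members and lists were chosen with earlier results of these data known. Coordinates and sequences are from GENCODE M21 (GRCm38). Alternatives were pseudocounts of 0.01 and 1, no filter, each library left out, summed UMIs with median-ratio scaling, a denominator without Malat1 and mitochondrial genes, removal of doublets or of cells with shared barcodes, thinning to 1000 UMIs, resolutions 0.3 lower and higher, other class definitions and other depth classes.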

Additional observations from a re-analysis of the deposited data

Results flagged for a closer look

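The difference of Rmst between neuron and progenitor clusters itself differed between the genotypes by a test of that difference. On the log2 scale it was -0.74 in WT3, -0.65 in WT6, -1.83 in Het5 and -1.76 in Het9, and the Setd5+/- libraries were lower by -1.10 (SE 0.188, limma adjusted P = 0.0311, 2 libraries per genotype). The neuron class held 21, 64, 9 and 8 Rmst UMIs in WT3, WT6, Het5 and Het9, and the progenitor class 68, 256, 184 and 120. The call was lost in 8 of 15 alternatives, with adjusted P up to 0.999 among them.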

How the results depend on the processing

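Between the genotypes no paired analysis was possible because the cell-name prefixes carry no replicate number of the sample labels. The labels also do not say whether fetuses of the same replicate number belong together. Comparisons of groups of cells were paired within each library, which was the block. The depth window of 4000 to 8000 UMIs, deep against shallow within excitatory neuron-like or progenitor cells, and leaving out clusters 10 and 12 were added after seeing the data. Of the values under alternatives, 513 kept direction and side of the threshold, 9 lost the call, 14 gained one and 40 reversed. They are those of the members, Neat1 included, and of Setd5 between genotypes over all cells. Fits with a library left out are among them. Malat1 kept its call between neurons and progenitors (18 of 18 alternatives, 0.67 to 1.057), at both pallial steps (15 of 15 each), with depth (17 of 17, -0.63 to -0.23) and in cluster 7. Miat kept both pallial steps (15 of 15) and Rmst the second (15 of 15).

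The counts of genes called moved as follows. Over all cells the 7 calls became 7 to 41 with a library left out. Within clusters the 97 became 160 to 583 with a library left out, 46 after thinning and 148 at the higher resolution. Thinning to 1000 UMIs left 3543 between neurons and progenitors, 1666 at the first and 1990 at the second pallial step. The 4 calls on the neuron to progenitor difference by genotype became 0 with a pseudocount of 1, without filter, after thinning and at the lower resolution, 2 at the higher resolution and within the depth window, 8 with summed UMIs, and 3 to 21 with a library left out. The 2412 calls with depth became 1563 to 2149 with a library left out, 628 within excitatory neuron-like cells and 934 within progenitors.

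Between genotypes over all cells, Miat was 0.089 after thinning. Rmst was -0.0092 with a pseudocount of 1, -0.0043 with the other denominator, -0.067 after thinning, -0.17 within the depth window and -0.37 to 0.37 with a library left out, and Malat1 was -0.10 to 0.0030 with a library left out. Between neurons and progenitors, Miat was 0.085 with classes by marker UMIs and 0.95 for excitatory neuron-like against radial glia-like cells. Rmst was 0.62 at the higher resolution. Pantr1 was 0.0021 for excitatory neuron-like against radial glia-like cells and lost its call with classes by marker UMIs (-0.08). At the first pallial step Rmst was 0.15 after thinning and 0.24 at the higher resolution. Pantr1 was -0.0075 after thinning, -0.0017 at the lower resolution and -0.027 to 0.065 with a library left out, and at the second step -0.085 to 0.011.

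In the difference by genotype, Malat1 was 0.0023 with summed UMIs, 0.013 within the depth window and -0.24 to 0.17 with a library left out, and Miat was 0.067 at the lower resolution. Malat1 within cluster 4 was 0.0060 with summed UMIs, 0.0017 at the lower resolution and -0.092 to 0.089 with a library left out. In cluster 5 it was -0.028 with summed UMIs, -0.27 within the depth window and -0.11 to 0.25 with a library left out, and in cluster 12 -0.0095 without doublets, -0.012 after thinning and -0.070 to 0.089 with a library left out. With a library left out it was -0.14 to 0.029 in cluster 0, -0.020 to 0.043 in cluster 1, -0.11 to 0.013 in cluster 2 and -0.24 to 0.029 in cluster 3, where it was called without Het5 (-0.21), with Het9 alone assumed to vary like the wild-type libraries. The cause of these changes was not tested. Neat1 and Snhg11 rest on the fewest UMIs of the members, 402 and 229 over all cells.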
